A study of Arabidopsis thaliana with 9 samples.

Results

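Cytochrome P450 genes were taken as the probe sets with exactly 1 gene in the platform annotation and a symbol of CYP, a family number and a subfamily letter. This gave 23 genes, each read by 1 probe set, among 13513 probe sets with 1 annotated gene and 22746 probe sets tested. They were 19 genes of family CYP71, all of subfamily CYP71B, and 1 gene each of families CYP51, CYP78, CYP79 and CYP84. The RefSeq gene table of Arabidopsis holds 236 loci with such a symbol, so what follows describes the CYP71B genes and 4 others, not the whole superfamily. Another 3 probe sets with 1 gene and a symbol of CYP and digits did not meet the rule. They include those of the cyclophilin genes CYP71 and CYP59.

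Whole Arabidopsis thaliana plants at growth stage 1.04 were compared in 3 groups of 3 Affymetrix ATH1 arrays each, 9 arrays in all. These were mutant line1135, mutant line774 and WT-control (source C2S1). All had grown for 17 days on plates of 50 seeds at 21 °C with 16 h of light and 8 h of darkness. The mutated gene of either line is not given in the labels used here, the series title calls the mutants epigenetic, and a T-DNA knockout label stands on all 3 groups, controls included. The number of arrays limits the precision of every value, and the labels do not tell whether replicates were grown separately. Each p-value below reflects the spread among 3 arrays a group, which may be technical. In the main fit that spread was pooled over all 3 groups and moderated across probe sets, so arrays outside a comparison also bear on its p-value. RNA came from whole plants, where fewer cells of a type and less RNA per cell cannot be told apart.

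Plant cytochromes P450 are haem enzymes that insert an oxygen atom into small molecules, with electrons that a reductase passes on from NADPH. They act in the synthesis and breakdown of hormones, sterols, pigments, cuticle lipids and defence compounds. The CYP71B subfamily is large in Arabidopsis, many of its genes lie in tandem rows, and for most of its members no substrate is settled. Its best known member makes the last step of camalexin, the indole phytoalexin of Arabidopsis, and is not among the 23. Of the 23, a role is known for CYP71B6, which oxidises indole-3-acetonitrile towards indole carboxylic acids. CYP79A2 converts phenylalanine to its aldoxime for benzylglucosinolate, and CYP84A4 acts in the synthesis of arabidopyrones. CYP78A9 promotes growth of the fruit and other floral organs, and CYP71B31 oxidises linalool in flowers. The functional sterol 14-demethylase gene is CYP51G1, and its relative CYP51G2 has a pseudogene type in RefSeq.

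Signals are linear intensities, and every array as deposited had a trimmed mean of 100.009 to 100.01. The highest signal of 27 Bacillus control probe sets on each array served as the background. It was 7.54 to 13.4 in line1135, 8.49 to 10.9 in line774 and 5.36 to 6.63 in WT-control, so a dim gene cleared it less easily in the mutant lines. Of the 23 P450 genes, 12 were above it on all 9 arrays. CYP71B36 was above it on 8 arrays, CYP51G2 on 4, CYP84A4 on 3, CYP71B27 on 2 and CYP71B25 on 1. CYP71B16, CYP71B21, CYP71B30P, CYP71B31, CYP71B38 and CYP79A2 were above it on 0 arrays. Of the plant tissue markers named by the annotation, 2 were above background on all 9 arrays. They were RCA, the Rubisco activase of leaves, and PYK10, a root and endoplasmic reticulum body glucosidase. The root markers EXPA7 and EXPA18 were above it on 7 and 8 arrays. RCA had a signal of 6185 ± 402 in line1135, 5900.0 ± 138 in line774 and 5684 ± 665 in WT-control (SD, n = 3 each). The summed signal of the 3 measured root markers out of 6 listed ran from 2721 to 3473 in line1135, 2370.0 to 3441 in line774 and 3058 to 3594 in WT-control. PYK10 made up most of it, so the sum hides EXPA7 and EXPA18, which ran differently. The PYK10 mean was 3049 in line1135, 2842 in line774 and 3296 in WT-control, lowest in line774. EXPA7 had means of 11.7 in line1135, 18.4 in line774 and 8.73 in WT-control. EXPA18 had 20.004 in line1135, 36.341 in line774 and 30.033 in WT-control, so both were highest in line774. Whether root content was even across the groups was not tested. The leaf list had 1 of 6 genes measured, and flower and seed lists had 0 of 6 each. None of these markers passed the test in any comparison.

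A change, below, is the difference of 2 group means of log2(signal + 16), given ± its standard error from a limma fit of all 9 arrays. Its p was adjusted across the 22746 probe sets after Benjamini and Hochberg. The offset of 16 understates changes of dim genes. A probe set was called at an adjusted p under 0.05 with at least a 2-fold change, and separately counted at that adjusted p with any fold.

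In line1135, 3 CYP71B genes were lower than in WT-control, namely CYP71B23, CYP71B24 and CYP71B26, by 1.92-fold, 1.76-fold and 1.31-fold on the offset scale. That is 3 of 23 at any fold, where 6.86% of all probe sets were lower, and the count was 1 without WT-control replicate 1 or without WT-control replicate 3. None of the 23 P450 genes passed the test in line774, and none passed in the comparison of line1135 with line774. All 3 genes that fell lie in one tandem row on chromosome 3. No P450 gene was called at 2-fold or more with the offset of 16, but this rested on the offset and on single arrays. The WT-control mean signal was 2.16 times the line1135 mean for CYP71B23 and 2.12 times for CYP71B24 without an offset. Lower calls in line1135 against WT-control numbered 2 at an offset of 1, 2 without line1135 replicate 3, and 1 without line1135 replicate 2 or without WT-control replicate 3. A probe set shared by 2 CYP71B genes, outside the rule and picked after its values were seen, was called lower in line1135 (-1.13 ± 0.15, adjusted p = 0.000753 by limma). It was also lower in line774, under 2-fold (-0.69 ± 0.15, adjusted p = 0.0132 by limma), though not under every alternative. The 2 lines did not differ in it by the test (adjusted p = 0.216 by limma).

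CYP71B23 (AT3G26210) had signals of 40.4, 69.5 and 62.5 in line1135, 103, 109 and 93.9 in line774, and 149, 118 and 105 in WT-control. All 3 line1135 arrays lay below every array of the other groups, while line774 and WT-control overlapped. The change was -0.94 ± 0.16 in line1135 against WT-control (limma, adjusted p = 0.0032, 95% interval -1.30 to -0.58). In line774 against WT-control it was -0.24 ± 0.16 (adjusted p = 0.421 by limma), with an interval of -0.60 to 0.12. The difference between line1135 and line774 was -0.70 ± 0.16 and just missed the threshold (limma, adjusted p = 0.0578). It passed at an offset of 1 (0.0437), with a filter on dim probe sets at the 25th percentile (0.0204) or the 50th percentile (0.0253), and without line1135 replicate 2 (0.0482). Over 20 alternatives its adjusted p ran from 0.0204 to 0.183 by limma.

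CYP71B24 (AT3G26230), which lies 2 loci along from CYP71B23 in the RefSeq order, had signals of 19.4, 15.4 and 44.7 in line1135. They were 42.6, 46.6 and 53.6 in line774 and 66.9, 46.2 and 55.7 in WT-control. Replicates 1 and 2 of line1135 were far below all other arrays, and replicate 3 lay just below the lowest WT-control array and within the range of line774. The change in line1135 against WT-control was -0.82 ± 0.22 (limma, adjusted p = 0.0344), with a 95% interval of -1.31 to -0.32. This call was not held by every subset of arrays. It was lost without line1135 replicate 1 (0.111) or replicate 2 (0.110), WT-control replicate 1 (0.128) or replicate 3 (0.0875), or line774 replicate 2 (0.0515), and in a fit of only the 2 groups compared (0.0716), and at a threshold of 0.01. Over 20 alternatives its adjusted p ran from 0.00295 to 0.128 by limma. Its size ran from -1.19 at an offset of 1 to -0.42 at an offset of 64. In line774 against WT-control the change was -0.18 ± 0.22 (limma, adjusted p = 0.707), and line1135 differed from line774 by -0.64 ± 0.22 (limma, adjusted p = 0.206). Without line1135 replicate 3 that difference was -0.93 and passed (limma, adjusted p = 0.0301), within a range of 0.0301 to 0.396 over the 20 alternatives.

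CYP71B26 (AT3G26290) had signals of 119, 118 and 117 in line1135, 141, 137 and 128 in line774, and 159.55, 141 and 179 in WT-control. The groups formed 3 steps, with line1135 below line774 and line774 below WT-control, and no arrays overlapped, although the highest line774 and the lowest WT-control array both round to 141. The change against WT-control was -0.39 ± 0.09 in line1135 (limma, adjusted p = 0.0166, 95% interval -0.59 to -0.19) and -0.21 ± 0.09 in line774 (limma, adjusted p = 0.17). The line1135 call was lost without WT-control replicate 1 (0.0552) or replicate 3 (0.0609) and at a threshold of 0.01, with a range of 0.0106 to 0.0609 over the 20 alternatives. The difference between line1135 and line774 was -0.18 ± 0.09 (limma, adjusted p = 0.404).

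**Figure D1:**
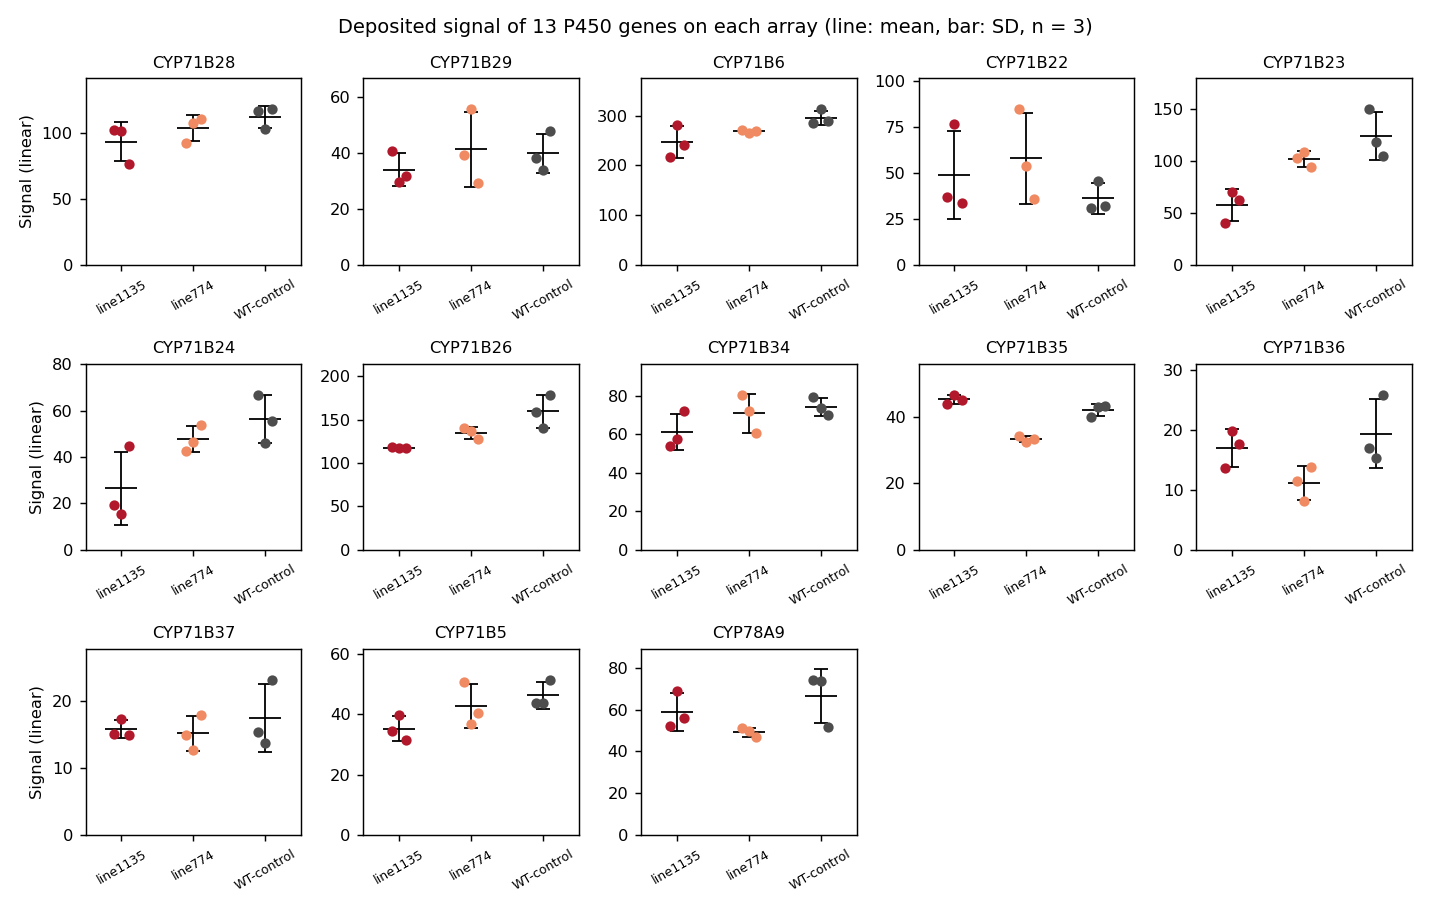
Deposited linear signal (y axes from 0) of the 13 P450 genes above background on every array of at least 2 groups, with 1 point per array, the mean as a line and the SD as a bar (n = 3). The 3 line1135 points of CYP71B23 sit between 40.4 and 69.5, below the lowest WT-control point at 105, and those of CYP71B26 sit between 117 and 119, below the lowest at 141.

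The counts stand here beside those over all probe sets. With a 2-fold minimum, limma called 0 of 23 P450 genes in either direction in each comparison, with the exceptions by offset and left-out array given above for line1135, where the lower count reached 1 or 2. Of all probe sets, 1.06% passed that rule as higher and 1.22% as lower in line1135 against WT-control, and for line774 against WT-control these shares were 1.02% and 0.98%. Between the 2 lines, 0.435% were higher in line1135 and 0.167% lower. At any fold, the 3 lower genes in line1135 were 13% of the 23 and 0 were higher, where 6.74% of all probe sets were higher. The count of 3 was also 1 at an adjusted p under 0.01. In line774 against WT-control it was 0 of 23 each way, where 6.01% of all probe sets were lower and 6.6% higher. In line1135 against line774 it was again 0 each way, where 0.87% were lower and 1.13% higher.

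At an unadjusted p under 0.05, limma gave 4 lower and 1 higher P450 genes in line1135 against WT-control, where 12.5% and 13.9% of all probe sets were. It gave 3 lower and 0 higher in line774 against WT-control, where 11.5% and 13.8% of all were. Between line1135 and line774 it gave 2 lower and 1 higher, where 8.04% and 6.81% of all were.

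The median log2 change of the 23 genes was -0.08 in line1135 and -0.09 in line774 against WT-control, beside 0.02 in each line over all probe sets tested. These medians include 10 genes near or below background and moved with the offset and the filter. In line1135 the median was -0.16 at an offset of 1, -0.20 with the 25th percentile filter and -0.24 with the 50th percentile filter. In line774 it was -0.22 at an offset of 1 and -0.0372 at an offset of 64. Between line1135 and line774 the median was -0.04, beside -0.00234 over all probe sets, and it was -0.13 at an offset of 1, -0.15 with the 25th percentile filter and -0.18 with the 50th percentile filter. Of the 12 genes above background on all 9 arrays, 10 had a change below 0 in line1135 and 10 in line774 against WT-control, where 45.9% and 45.5% of all probe sets did. Both lines were compared with the same 3 control arrays, so these counts share their reference values, and most of the single changes did not pass the test. Between line1135 and line774 it was 9 of the 12, where 50.6% of all did. These shares run over all probe sets tested, dim ones included, so they are not a like set for the 12 genes. The share among the 14108 probe sets above background on all 9 arrays was not computed.

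Among the 12 genes above background on all 9 arrays, the 95% intervals of 10 excluded a 2-fold change in both directions in line1135 against WT-control. The exceptions were CYP71B23 and CYP71B24, whose intervals reached past a 2-fold fall. In line774 against WT-control 11 of the 12 excluded both, and the exception was CYP71B22, whose interval reached past a 2-fold rise. In line1135 against line774 the 10 genes other than CYP71B23 and CYP71B24 excluded both. These intervals are for single genes, on the offset scale, and are not adjusted for their number. The share of all probe sets whose intervals excluded a 2-fold change was not computed, so the counts say nothing particular to P450 genes. They were not recounted at an offset of 1, where CYP71B22 in line1135 against WT-control had a wider standard error (0.35 ± 0.34).

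**Figure D2:**
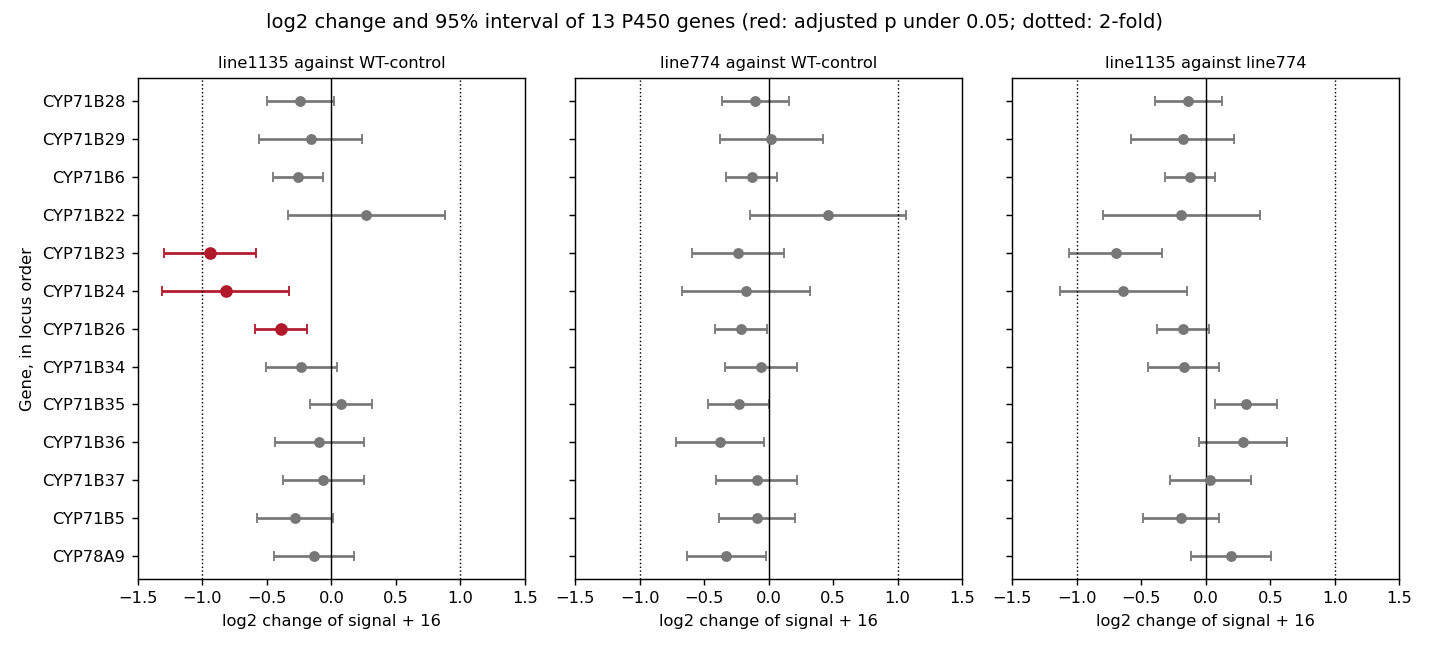
The log2 change of signal + 16 (x axes) with its unadjusted 95% interval for the 13 P450 genes in locus order (y axis), in the 3 comparisons, with red for an adjusted p under 0.05 and dotted lines at a 2-fold change. Red marks CYP71B23 (-0.94), CYP71B24 (-0.82) and CYP71B26 (-0.39) in line1135 against WT-control, and the other 2 panels hold no red point.

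CYP71B6 had signals of 218, 282 and 241 in line1135, 271, 266 and 270.0 in line774, and 286, 313 and 290.0 in WT-control. Both lines lay below every control array, but narrowly. The change was -0.26 ± 0.09 in line1135 (limma, adjusted p = 0.0844) and -0.13 ± 0.09 in line774 (limma, adjusted p = 0.415). The line1135 value passed only with median scaling of the arrays (0.0500) and without line1135 replicate 2 (0.0191), within a range of 0.0191 to 0.249 over 20 alternatives.

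CYP71B35 stood on opposite sides of the control in the 2 lines. It had signals of 43.9, 46.6 and 45.0 in line1135, 34.3, 32.3 and 33.4 in line774, and 40.0, 43.0 and 43.1 in WT-control. The 3 groups did not overlap, with line774 lowest and line1135 highest. The change was 0.08 ± 0.11 in line1135 against WT-control (limma, adjusted p = 0.721) and -0.23 ± 0.11 in line774 against WT-control (limma, adjusted p = 0.209). The difference between the lines was 0.31 ± 0.11 (limma, adjusted p = 0.206), and none of these passed.

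Its neighbour CYP71B36 had signals of 13.7, 19.9 and 17.6 in line1135, 11.5, 8.14 and 13.9 in line774, and 17.0, 15.3 and 26.0 in WT-control. All line774 arrays lay below the controls, 1 of them below background, and the change there was -0.38 ± 0.16 (limma, adjusted p = 0.153). In line1135 it was -0.09 ± 0.16 (limma, adjusted p = 0.776).

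CYP78A9, the floral organ growth gene, had signals of 52.1, 69.2 and 55.8 in line1135, 51.0, 50.0 and 46.8 in line774, and 74.4, 73.6 and 51.8 in WT-control. The line774 arrays lay just below the lowest control array, at a change of -0.33 ± 0.14 (limma, adjusted p = 0.169). The line1135 arrays overlapped the controls (-0.13 ± 0.14).

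CYP71B22 had the largest standard error of the 13 genes that were above background on every array of at least 2 groups. It had signals of 36.7, 76.5 and 33.6 in line1135, 84.3, 53.4 and 35.6 in line774, and 30.7, 45.5 and 31.8 in WT-control. Line1135 replicate 2 and line774 replicate 1 were each far above the lowest array of their own group, and all groups overlapped. Its changes of 0.27 ± 0.27 in line1135 and 0.46 ± 0.27 in line774 did not pass (limma, adjusted p = 0.598 and 0.346).

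CYP71B28 had signals of 102, 102 and 76.4 in line1135, 92.4, 108 and 111 in line774, and 117, 103 and 118 in WT-control. CYP71B5 had 34.4, 39.7 and 31.6 in line1135, 50.7, 36.8 and 40.5 in line774, and 43.9, 43.6 and 51.5 in WT-control. For both genes the line1135 arrays lay below all controls without passing the test, at changes of -0.24 ± 0.12 (adjusted p = 0.227 by limma) and -0.28 ± 0.13 (adjusted p = 0.207 by limma). The signals of CYP71B34 (54.0 to 80.6), CYP71B29 (29.1 to 55.5) and CYP71B37 (12.7 to 23.2) over the 9 arrays overlapped between all groups.

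Counted by overlap alone, 6 genes had all line1135 arrays below all WT-control arrays, where 14.4% of all probe sets did. They were CYP71B5, CYP71B6, CYP71B23, CYP71B24, CYP71B26 and CYP71B28. CYP71B35 was the 1 gene above them, where 16.5% of all probe sets were. In line774, 5 genes lay below all controls (13.7% of all probe sets), namely CYP71B6, CYP71B26, CYP71B35, CYP71B36 and CYP78A9, and 0 above (17% of all). Between the lines, CYP71B23 and CYP71B26 were lower in line1135 without overlap (9.97% of all), and CYP71B35 and CYP78A9 higher (8.93% of all).

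The other 10 genes had signals near or below background, and no single fold is given for them. The highest signal of any array was 3.46 for CYP71B16, 2.22 for CYP71B21, 0.853 for CYP71B30P, 5.86 for CYP71B31, 4.81 for CYP71B38 and 1.95 for CYP79A2. These 6 transcripts were therefore not measurable above background in any group. The flower enzyme CYP71B31 and the benzylglucosinolate enzyme CYP79A2 are among them.

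CYP84A4 was above background on 1 line1135 array (10.3) and on 2 WT-control arrays (13.5 and 8.49), and CYP71B25 on 1 line774 array (8.52). The arrays above background came from different groups, with no group above on all of its arrays.

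CYP51G2 and CYP71B27 are typed as transcribed pseudogenes in RefSeq, and CYP71B30P is named as a pseudogene although its RefSeq type is protein coding. CYP71B27 had signals of 8.45, 16.4 and 4.99 in line1135, 6.38, 1.18 and 5.31 in line774, and 1.22, 5.72 and 4.32 in WT-control. It was above background on line1135 replicates 1 and 2 only, and the test was not passed in line1135 (adjusted p = 0.188 by limma). CYP51G2 had signals of 5.72, 11.3 and 7.88 in line1135, 1.16, 12.0 and 8.50 in line774, and 4.53, 6.96 and 8.95 in WT-control, with all groups overlapping. CYP71B30P stayed under 1 on every array.

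By position, 11 of the 23 genes lie in one row on chromosome 3, from CYP71B16 to CYP71B37. The others lie on chromosome 1 (CYP71B27, CYP71B28 and CYP71B29), chromosome 2 (CYP51G2 and CYP71B6), elsewhere on chromosome 3 (CYP71B5, CYP71B30P, CYP71B31, CYP71B38 and CYP78A9) and chromosome 5 (CYP79A2 and CYP84A4). In the RefSeq table of assembly TAIR10.1 this row holds 25 loci, 18 of them with P450 symbols. Of these 18, 7 have no probe set with 1 gene, and the same holds for all 7 other loci of the row. The 11 P450 genes are thus the only loci of it read by a probe set with 1 gene. Another 2 probe sets of the row are annotated to several genes and are left out of the counts and medians of the row. The one shared by 2 CYP71B genes is described under the other observations, and values of the other are not given. Of the 11, 7 were above background on all arrays. The 3 genes that fell in line1135, 1 of them without WT-control replicate 1 or 3, were all in the row, and 0 of the 12 P450 genes outside it passed by limma, of which 5 were above background on all arrays, beside the 6.86% of all probe sets that were lower. At an unadjusted p under 0.05, 2 of those 12 passed in line1135, CYP71B6 as lower and CYP71B27 as higher. No test was made of this difference.

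Within the row the changes were not uniform. Against WT-control, CYP71B23 and CYP71B24 had -0.94 and -0.82 in line1135, while CYP71B22, the locus next to CYP71B23, had 0.27. Further along, CYP71B26 had -0.39, CYP71B34 -0.23 ± 0.13, CYP71B35 0.08, CYP71B36 -0.09 and CYP71B37 -0.06 ± 0.14. The median over the 11 genes of the row was -0.08 in line1135 and -0.09 in line774. Over the 12 genes outside it the medians were -0.07 in line1135 and -0.10 in line774.

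**Figure D3:**
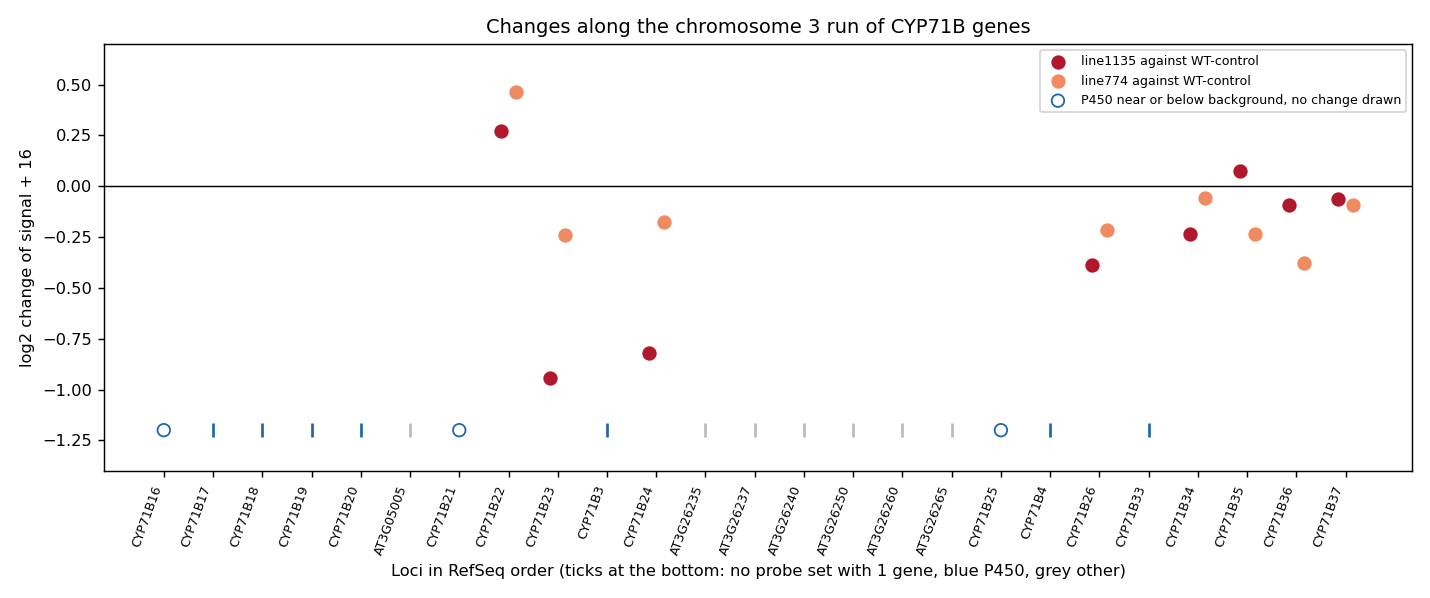
The log2 change of signal + 16 against WT-control (y axis) in line1135 and line774 for the P450 genes of the chromosome 3 row, with the 25 loci in RefSeq order on the x axis, points for genes above background on at least 8 arrays. Along the bottom, open circles mark genes near or below background, for which no change is drawn, and ticks mark loci with no 1-gene probe set. The lowest points are CYP71B23 (-0.94) and CYP71B24 (-0.82) in line1135, beside CYP71B22 at 0.27.

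The probe sets most like the 3 genes over the 9 arrays were sought among 13512 others with 1 gene, by Pearson correlation of log2 signal. These are the highest of many correlations over arrays of 3 groups and serve only as a description. For CYP71B23 they were AT5G27930 (0.966), AT2G31990 (0.962) and AT1G15230 (0.955). For CYP71B24 they were AT5G63190 (0.977), AT3G10250 (0.976) and AT4G00700 (0.974). For CYP71B26 they were GSTL3 (0.961), AT4G13690 (0.951) and AT2G04050 (0.945). AT4G13690 had mean signals of 1.53 in line1135 and 2.58 in line774, below background, and 7.75 in WT-control, so its correlation rests largely on values with no measurable level. GSTL3, a glutathione transferase of the lambda class, had a mean signal of 472 in line1135, 522 in line774 and 656 in WT-control. No P450 gene was among these 9.

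Of 99 genes listed for the pathways in which plant P450s act, 9 were measured by a probe set with 1 gene. They covered the P450 redox partners (1 of 8), glucosinolates and camalexin (3 of 18), gibberellin (1 of 10), phenylpropanoids and flavonoids (3 of 16) and sterols, triterpenes and carotenoids (1 of 13). The lists for brassinosteroids, abscisic acid, jasmonate and cuticle lipids had 0 measured, as did 28 P450 loci known by other names. Measured here means named by a probe set with 1 gene. Another 8730 probe sets carry no gene in the annotation used, so these genes may have probe sets that are unnamed here. In line1135 against WT-control, 1 of the 9 was higher and 0 lower, where 6.74% and 6.86% of all probe sets were. This was UGT74B1, a glucosyltransferase of glucosinolate synthesis, with a mean signal of 341 ± 4.22 in line1135 and 257 ± 10.2 in WT-control (SD, n = 3 each), a change of 0.39 ± 0.09 (limma, adjusted p = 0.0135). In line774 it had 318 ± 40.1, a change of 0.29 ± 0.09 against the same controls that missed the threshold (limma, adjusted p = 0.0565).

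In line774 against WT-control, 3 of the 9 were higher and 0 lower, all 3 of the phenylpropanoid and flavonoid list, where 6.6% and 6.01% of all probe sets were. HCT, the hydroxycinnamoyl transferase that makes the ester a P450 then hydroxylates, had 531 ± 40.0 in line774 and 404 ± 17.2 in WT-control, a change of 0.38 ± 0.08 (limma, adjusted p = 0.00829). The dihydroflavonol reductase gene DFR (0.58 ± 0.15, adjusted p = 0.0269 by limma) and the coumarin synthesis gene AT3G13610 (1.77 ± 0.24, adjusted p = 0.000905 by limma) were the other two. Of these 3 only AT3G13610 passed with at least 2-fold. DFR had 20.6 ± 3.59 in line1135 and 43.7 ± 6.76 in line774, and AT3G13610 had 112 ± 52.4 in line1135 and 306 ± 17.7 in line774. Both were lower in line1135 than in line774 (limma, adjusted p = 0.0377 and 0.0147), 2 of the 9, where 0.87% of all probe sets were. In WT-control DFR had 23.9 ± 4.52 and AT3G13610 had 79.8 ± 21.6. Against WT-control neither passed in line1135, at changes of -0.13 ± 0.15 for DFR and 0.36 ± 0.24 for AT3G13610 (limma, adjusted p = 0.656 and 0.400). ATR3, the 1 measured gene of the redox partner list, is a diflavin reductase related to the P450 reductases. Whether it passes electrons to any P450 cannot be told from these data. It had 23.0 ± 7.18 in line1135, 33.4 ± 2.38 in line774 and 27.5 ± 5.50 in WT-control (SD, n = 3 each) and did not pass in any comparison.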

How the data were processed

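RNA of 9 whole-plant samples was labelled from the 3' end and hybridised to ATH1 arrays, 1 per sample, per the labels' protocols. The submitters' processing notes name GCOS and MAS5 for the deposited intensity per probe set, with no version. Each deposited column had been scaled to 1 trimmed mean. No 2 arrays held identical values. Groups and replicate numbers came from sample titles.

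From the 22810 probe sets, 64 array controls were left out. Values became log2(signal + 16), and 1 mean per group was fitted with limma 3.58.1 in R 4.3.3 (eBayes with an intensity trend, 6 residual degrees of freedom), tested on simulated data. Genes were named from the platform annotation (503 probe sets had several genes and 8730 none, and these were named for no gene). Loci came from RefSeq TAIR10.1, which matched 13436 of 13513. Locus names, symbols, gene types, chromosome and locus order were taken from it. No coordinates are given, because no build is stated for the arrays.

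Members and lists were chosen with earlier results of these data known. The genes named were all called members, further members passing at any fold (up to 30 genes), the brightest of each family with at least 3 probe sets, members with a known role, list genes that passed and, for the 3 members with the lowest adjusted p, the 3 most correlated probe sets. The remaining members were added after their values were seen, so that all are accounted for. Alternatives were other offsets, filters on dim probe sets, normalization, no trend, fits of 2 groups, a replicate block, no shared probe sets, a stricter threshold and leaving out each array. Figures were drawn with matplotlib 3.10.9.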

Additional observations from a re-analysis of the deposited data

How the results depend on the processing

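Calls at 2-fold stayed at 0 under all 20 alternatives, except lower calls in line1135 against WT-control, which numbered 2 at an offset of 1 and 0 to 2 with 1 array left out (1 without line1135 replicate 2 or WT-control replicate 3, and 2 without line1135 replicate 3). Genes passing at any fold in that comparison numbered 1 at an adjusted p under 0.01, 4 with median scaling and 1 to 3 with 1 array left out (1 without WT-control replicate 1 or 3). Between line1135 and line774 they numbered 1 at an offset of 1 and 1 with each percentile filter, and 0 to 1 with 1 array left out (1 without line1135 replicate 2 or 3). In line774 against WT-control they were 0 throughout. The median change moved with the offset and with the removal of dim genes. At an offset of 1 it was -0.16 in line1135, -0.22 in line774 and -0.13 between the lines, and at an offset of 64 it was -0.0372 in line774. With the 25th percentile filter it was -0.20 in line1135 and -0.15 between the lines, and with the 50th percentile filter -0.24 and -0.18. CYP71B23 passed in line1135 under all alternatives, with changes of -1.12 to -0.63 and adjusted p of 0.000611 to 0.0173 by limma.

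Small changes that never passed turned sign in some settings, and the cause was not tested. In line774 CYP71B29 was -0.0119 under quantile normalization and -0.0136 under median scaling. With 1 array left out, the line774 values ran from -0.155 to 0.178 for CYP71B29, -0.138 to 0.0306 for CYP71B34 and -0.174 to 0.0265 for CYP71B37. In line1135 they ran from -0.0133 to 0.437 for CYP71B22, -0.176 to 0.0363 for CYP71B36 and -0.141 to 0.0591 for CYP71B37. Between line1135 and line774 they ran from -0.476 to 0.0579 for CYP71B22 and -0.0258 to 0.0960 for CYP71B37.

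With the replicate block, 3 P450 genes passed at any fold in line1135, and 0 in the other comparisons, so it changed no call. The main fit did not pair arrays by replicate number. Whether same-numbered arrays share a batch was not tested, and the labels do not say. The same-numbered correlations were weak but all positive. Those correlations, of deviations from the group means, ran from 0.07 to 0.16 in line774 against WT-control. They ran from 0.06 to 0.10 in line1135 against WT-control and 0.09 to 0.14 between the lines. Of 6 arrays, 4, 4 and 6 correlated best with their own number in those comparisons. A signal near background limits what can be said of 10 of the 23 genes.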

Other observations

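A probe set outside the rule, because it is annotated to 2 genes, both of subfamily CYP71B and both in the chromosome 3 row, had a lower change in line1135 than any of the 11 single-gene probe sets of the row. It was picked after its values were seen, and it shares probes between loci, so its signal cannot be given to either gene. It had signals of 145, 91.9 and 132 in line1135, 152, 180 and 175 in line774, and 338, 244 and 274 in WT-control. All arrays of both lines lay below every control array. The change was -1.13 ± 0.15 in line1135 (limma, adjusted p = 0.000753), past 2-fold, and -0.69 ± 0.15 in line774 (limma, adjusted p = 0.0132), each against the same controls. The line774 value did not pass without line774 replicate 1 (0.051) or WT-control replicate 1 (0.0584), nor at a threshold of 0.01. In line1135 adjusted p lay between 8.53e-05 and 0.00444 under all 19 alternatives run for it, which were chosen after seeing the data. The difference between line1135 and line774 was -0.43 ± 0.15 (limma, adjusted p = 0.216).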
